A study of Mus musculus with 6 samples.

Results

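Lta, Tnf and Ltb, the genes of lymphotoxin alpha, tumor necrosis factor and lymphotoxin beta, lie side by side on mouse chromosome 17 and were taken by their symbols from a table of 27763 gene rows, in which each of the 3 has a single row. They were compared between poly(A) RNA libraries of 2 groups of natural killer (NK) cells named cNK and DN NK in the labels, with 3 libraries in each. Both groups came from the spleen of wild type C57BL/6 mice aged 6 weeks, and no treatment is named for either. The labels do not spell out the group names or the surface markers used to separate the cells, and the series title concerns an immature NK subset of the spleen and T-bet. No label says if the replicates are different mice, so the p-values below measure only the spread between these 6 libraries, which may be technical.

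The 3 genes encode related cytokines of the tumor necrosis factor (TNF) family, which act as trimers. TNF is made as a membrane protein that can be shed and signals through the receptors TNFR1 and TNFR2. Lymphotoxin alpha is secreted as a trimer that binds the same receptors, or is held at the cell surface in a complex with lymphotoxin beta, a membrane protein, and this complex binds the lymphotoxin beta receptor. Surface lymphotoxin on lymphocytes is known for organising lymph nodes and the compartments of the spleen, and TNF is a product of activated NK cells.

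On GRCm38, the build named in the submitters' processing notes, the 3 genes take up 10913 bases. Ltb (ENSMUSG00000024399) runs from 35194439 to 35196320 on the plus strand, Tnf (ENSMUSG00000024401) from 35199381 to 35202007 on the minus strand and Lta (ENSMUSG00000024402) from 35203165 to 35205351 on the minus strand. Ltb and Tnf thus face each other with their ends, 3060 bases apart, and Lta lies upstream of Tnf, with 1157 bases between its end and the Tnf start. The deposited rows list 1 transcript for Lta, 2 for Tnf and 3 for Ltb. In GENCODE M21 the Lta transcript has 4 exons, and 1 of the 3 Ltb transcripts is annotated as a retained intron.

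The bases before each start are shown because the 3 genes were all higher in DN NK, and they allow the promoters of the neighbours to be compared. They come from RefSeq on GRCm38.p6, which held all 3 genes, and run 5′ to 3′ on the strand of the gene up to the base before the start of the deposited gene span: chr17:35205352-35205601 for Lta and chr17:35202008-35202257 for Tnf, both on the minus strand, and chr17:35194257-35194438 on the plus strand for Ltb, whose deposited span starts 68 bases before its RefSeq start. Capitals mark matches to the motifs searched on either strand.
Lta: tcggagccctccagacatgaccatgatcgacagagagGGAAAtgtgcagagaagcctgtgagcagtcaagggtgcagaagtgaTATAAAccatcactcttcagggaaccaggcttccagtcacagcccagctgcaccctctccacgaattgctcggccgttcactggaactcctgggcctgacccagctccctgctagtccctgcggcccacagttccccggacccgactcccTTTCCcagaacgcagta
Tnf: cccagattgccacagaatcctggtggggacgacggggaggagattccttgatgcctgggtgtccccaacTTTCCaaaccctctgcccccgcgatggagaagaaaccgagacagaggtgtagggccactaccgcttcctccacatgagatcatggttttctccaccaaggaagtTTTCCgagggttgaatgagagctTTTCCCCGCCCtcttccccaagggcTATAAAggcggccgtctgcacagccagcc
Ltb: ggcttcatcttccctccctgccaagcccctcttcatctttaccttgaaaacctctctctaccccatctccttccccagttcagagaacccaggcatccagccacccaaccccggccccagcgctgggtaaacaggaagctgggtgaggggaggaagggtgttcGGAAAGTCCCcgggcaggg

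Motifs were searched on both strands of the 250 bases before the RefSeq start, and in 32851 promoters of the same length. A TATA box (TATAAA) was found before Tnf, 29 to 24 bases from its start, and before Lta, 167 to 162 bases from its start, while 12.4% of all promoters held one. The core of the NFAT motif (GGAAA), which 55.6% of promoters held, was found 2 times before Lta, 3 times before Tnf and 1 time before Ltb. An NF-kappa B motif was found before Ltb, 87 to 78 bases from its start and overlapping its NFAT core, but not within the same distance of Lta or Tnf, and 7.3% of all promoters held one. A GC box (GGGCGG, held by 32.7%) was found before Tnf, 49 to 44 bases from its start and directly next to an NFAT core. The T-box core (GGTGTG, held by 16.3%) was found before Ltb within the bases not shown, 64 to 59 bases from the RefSeq start. No match was found in the 3 windows for AP-1 (TGANTCA, held by 6.7%) or CRE (TGACGTCA, 1.5%). Nor was any found for CCGGAA (12%), a longer form of the ETS core, or the ROR core (AGGTCA, 14.0%). The ETS core GGAA on its own was not searched. These matches describe letters only.

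All values below are FPKM, fragments scaled to transcript length and depth by the authors, and fold changes are DN NK over cNK from edgeR's quasi-likelihood test on the deposited estimated counts of the 11690 rows that reach 1 FPKM in 3 or more libraries. Estimated counts summed to between 79798234 and 89526647 per library. A read pair was worth about 3.77 of them, which puts Ltb in cNK at 505.0 to 763.7 read pairs per library. Genes that define NK cells were present in both groups, with the 10 markers of the NK list summing to 7900 to 8560 FPKM in cNK and 2620 to 3060 FPKM in DN NK, where 9 of the 10 were lower and 1 did not pass. Of the rows tested, 61.7% passed an adjusted p of 0.05, and 30.8% passed and were higher in DN NK, so a call alone does not set a gene apart in this comparison.

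All 3 genes were higher in DN NK, Lta by the largest factor and Ltb by the smallest. No library of cNK reached the level of any DN NK library for any of the 3, a state shared by 31.0% of the rows tested. The pooled RNA does not tell a larger share of expressing cells from more RNA per cell.

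Lta was close to silent in cNK, at 0.689, 0.283 and 0.442 FPKM in replicates 1, 2 and 3, and stood at 8.62, 9.43 and 8.46 FPKM in DN NK. The lowest DN NK library was 12.3 times the highest cNK library. The group means were 0.472 ± 0.205 FPKM in cNK and 8.83 ± 0.522 FPKM in DN NK (SD, n = 3 each). DN NK exceeded cNK 19.3-fold (log2 4.27, SE 0.30, adjusted p = 2.32e-05). In the 3 cNK libraries the gene rests on about 26.3, 10.3 and 15.9 read pairs, against 287.3 to 323.6 in each DN NK library. The sum over cNK, about 52.5 read pairs, has a 95% Poisson interval of 39.3 to 68.8, which covers counting error only. Lta entered the test only through its DN NK libraries, since no cNK library reached 1 FPKM. Without any filter on low rows it passed as well (adjusted p = 2.02e-05). On the log2(FPKM + 1) scale, which shrinks low values, limma gave a log2 fold change of 2.75, or 6.72-fold.

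Tnf was expressed in both groups, at 8.67, 7.61 and 5.98 FPKM in cNK and at 39.4, 43.9 and 39.6 FPKM in DN NK. The lowest DN NK library was 4.55 times the highest cNK library. The means were 7.42 ± 1.35 and 41.0 ± 2.52 FPKM, a 5.75-fold difference (log2 fold change 2.52, SE 0.14, adjusted p = 1.08e-05). About 251.7 to 387.8 read pairs per library support the cNK values.

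Ltb was the most abundant of the 3 in every library. It stood at 17.6, 19.1 and 13.0 FPKM in cNK and at 48.9, 59.9 and 50.3 FPKM in DN NK. The lowest DN NK library was 2.56 times the highest cNK library. The means were 16.6 ± 3.20 and 53.04 ± 5.95 FPKM, a 3.34-fold difference (log2 fold change 1.74, SE 0.17, adjusted p = 0.000199). Among all rows tested, ordered by log2 fold change from the highest, Lta was at place 115, Tnf at 253 and Ltb at 418.

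**Figure D1:**
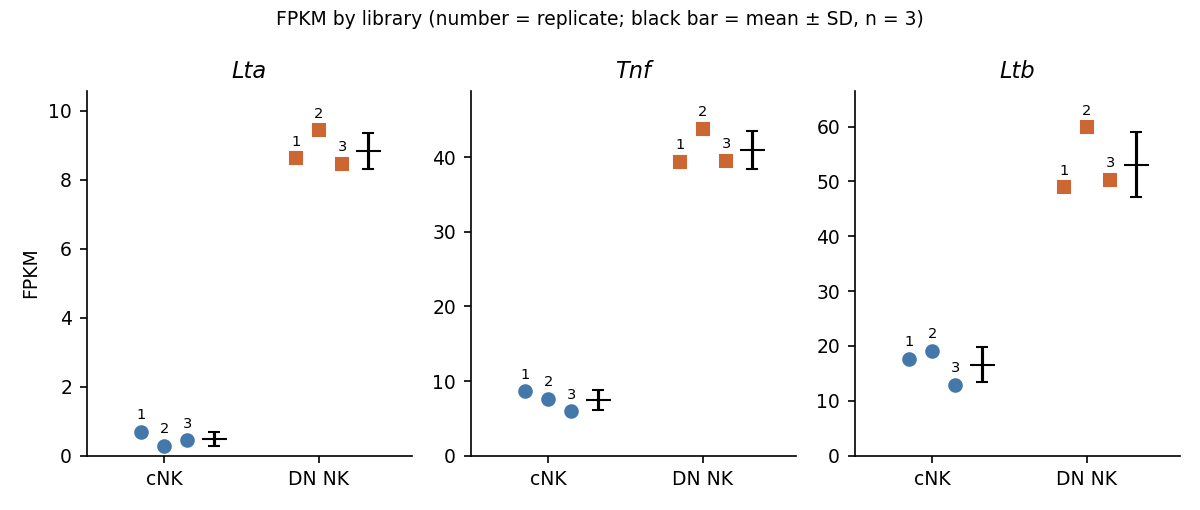
FPKM of Lta, Tnf and Ltb in each library, 1 panel per gene with its own axis from 0; numbers beside the points are replicates and black bars give the mean and SD of 3 libraries. All DN NK points lie above all cNK points in each panel, and DN NK replicate 2 is the highest for all 3 genes.

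The libraries of a group varied together only in part. In DN NK, replicate 2 was the highest for all 3 genes, and the spread was small, with coefficients of variation of 5.9% for Lta, 6.2% for Tnf and 11.2% for Ltb. In cNK, replicate 3 was the lowest for Tnf and Ltb, while replicate 2 was the lowest for Lta. The coefficients of variation there were 43.4% for Lta, 18.3% for Tnf and 19.3% for Ltb.

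The order of the levels was the same in all 6 libraries, with Ltb above Tnf and Tnf above Lta, and the ranges of neighbours in this order did not overlap within either group. The proportions shifted. Lta made up 2.55, 1.05 and 2.28% of the summed FPKM of the 3 genes in cNK and 8.89, 8.33 and 8.60% in DN NK. Tnf rose from 30.4 ± 2.00% to 39.9 ± 0.996% of the sum, and Ltb went from 67.7 ± 2.80% to 51.5 ± 1.26% (SD, n = 3 each). The sum itself was 24.45 ± 4.39 FPKM in cNK and 102.8 ± 8.97 FPKM in DN NK. Surface lymphotoxin needs both chains, and the Ltb to Lta ratio was 25.6, 67.4 and 29.3 in cNK and 5.68, 6.35 and 5.95 in DN NK. Ltb transcripts were thus in excess over Lta in every library, by a smaller factor in DN NK.

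**Figure D2:**
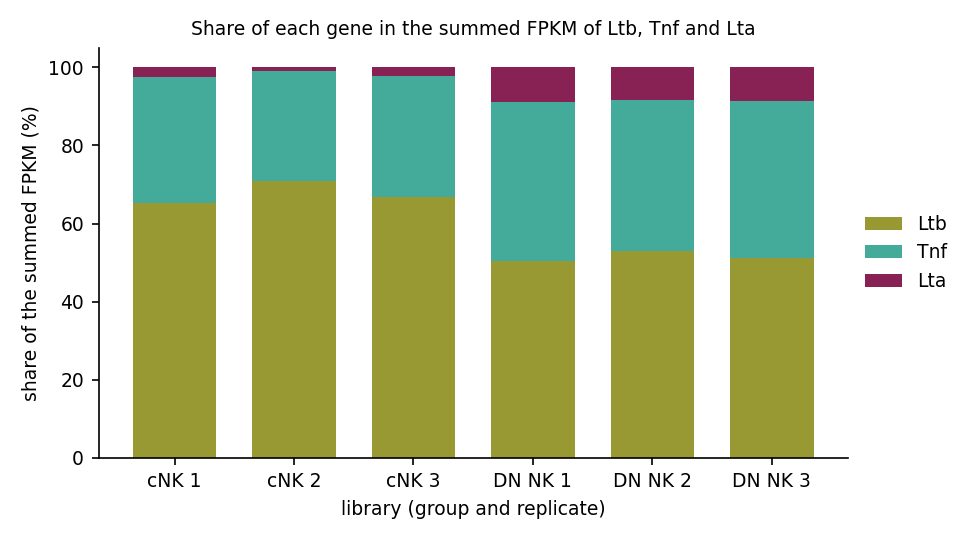
Share of Ltb, Tnf and Lta in the summed FPKM of the 3 genes, in percent, 1 stacked bar per library. The Lta share lies at 1.05 to 2.55% in cNK and at 8.33 to 8.89% in DN NK, and the Ltb share is lower in each DN NK library than in any cNK library.

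The ratio of a pair of genes within a library does not depend on depth, and it was used to test whether the neighbours changed by different amounts. The Lta change was larger than the Tnf change by 1.84 on the log2 scale (SE 0.35), a factor of 3.58. It was larger than the Ltb change by 2.63 (SE 0.44), a factor of 6.17. The Tnf change was larger than the Ltb change by 0.79 (SE 0.10), a factor of 1.73, with log2 Tnf to Ltb ratios of -1.33 to -1.02 in cNK and -0.45 to -0.31 in DN NK. For each of the 3 pairs the 3 DN NK ratios lay above the 3 cNK ratios. Each gave p = 0.1 in an exact 2-sided permutation test, also after adjustment over the 3 pairs, and 0.1 is the smallest p that 3 against 3 libraries allow. The sizes of both differences that involve Lta depend on how its low cNK values are treated: with log2(FPKM + 1) they were 0.42 against Tnf and 1.11 against Ltb.

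The rows around the 3 genes were less changed, with exceptions. Within 100 kb on either side lie 25 other rows, of which 15 were tested, and 9 of these were higher, none was lower and 6 did not pass. Their median log2 fold change was 0.65, against -0.02 over all rows tested, where 30.8% were higher. The 9 include Mir6973a, which lies inside Ltb. With a mean of at least 5 FPKM, 7 neighbours were tested, of which 3 were higher. Their median was then 0.04, against -0.01 over all rows of that filter. The nearest tested row upstream of Lta is Nfkbil1, named for its likeness to NF-kappa B inhibitors. It stood at 2.76 ± 0.480 FPKM in cNK and 4.57 ± 0.619 FPKM in DN NK (log2 fold change 0.78, SE 0.16, adjusted p = 0.00301), but its row shares bases with Atp6v1g2 on the other strand, and their reads cannot be told apart. On the other side of Ltb lies Lst1, a leukocyte gene, at 2.35 ± 0.392 and 3.55 ± 0.248 FPKM (log2 fold change 0.65), a call that was lost without a filter and without cNK replicate 1 or 3 or DN NK replicate 2. Ncr3-ps, the mouse pseudogene of the NK receptor NKp30, was at 0.156 ± 0.138 and 1.33 ± 0.163 FPKM (log2 fold change 3.07), and Ly6g5b at 0.305 ± 0.0435 and 1.14 ± 0.0376 FPKM (log2 fold change 1.95), both tested only through their DN NK libraries. On the log2(FPKM + 1) scale limma gave 1.02 for Ncr3-ps and 0.72 for Ly6g5b.

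Farther out, Bag6, a chaperone gene, and Prrc2a rose 1.56-fold and 1.24-fold. Well expressed genes on both sides did not pass. Ddx39b, an RNA helicase gene, was at 63.5 ± 1.91 and 61.7 ± 1.80 FPKM, and the class I gene H2-D1 was at 1174 ± 49.0 and 1155 ± 14.5 FPKM. Csnk2b (0.06 on the log2 scale), Gpank1 (-0.06) and D17H6S53E (0.07) did not pass either, and the sign of these 5 turned in 1 or more alternatives. The short rows Mir8094 and Gm25128, both inside Ddx39b, rose 2.02-fold and 2.18-fold, calls that ended with DESeq2, without a filter, and without cNK replicate 1 or DN NK replicate 1. For Gm25128 the call also ended without cNK replicate 2 or 3 or DN NK replicate 2. Gm23442, inside Prrc2a, missed the threshold (log2 fold change 0.98) but passed it with limma and without cNK replicate 2. Gm20522, Mir6974 and Gm22589 had a group mean of 1 FPKM or more but were not tested, and in Gm22589 that mean rests on cNK replicate 1 alone, at 3.11 FPKM. Mir6973a (3.78-fold higher) lies inside Ltb, and Mir6974 inside Lta. The library kit does not mark strand and rows inside another gene share bases with it, so their values cannot be told apart from those of Ltb, Lta, Ddx39b or Prrc2a.

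**Figure D3:**
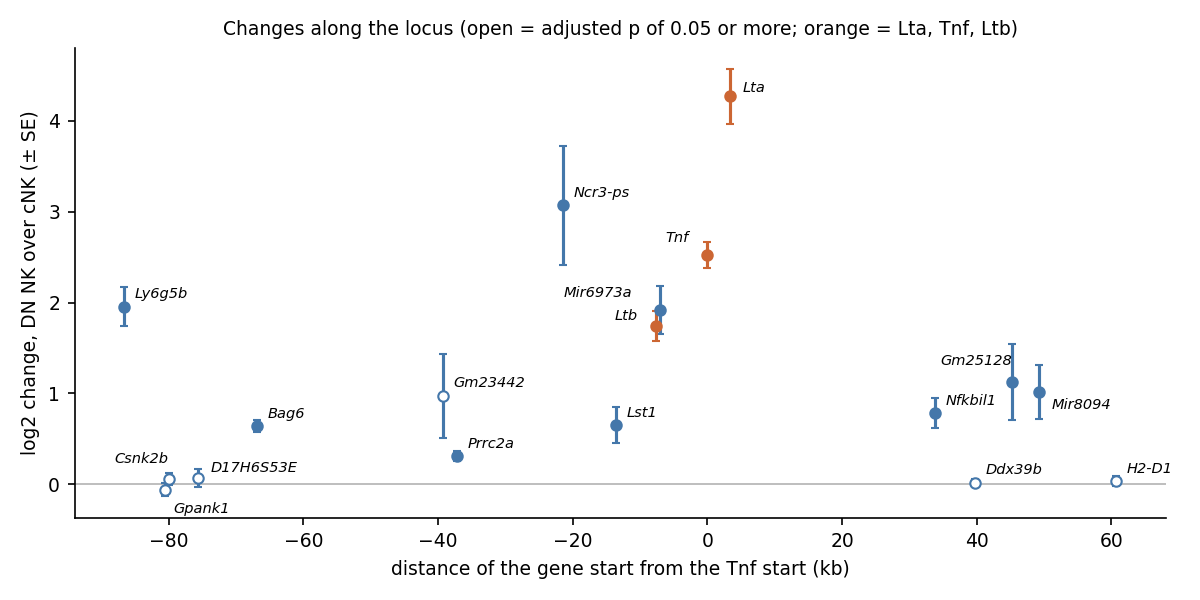
Log2 fold change (DN NK over cNK) with its SE for the 3 genes (orange) and the 15 tested rows within 100 kb (blue), by the distance of each gene start from the Tnf start in kb; open points did not pass an adjusted p of 0.05. Lta and Ncr3-ps have the highest points, and Ddx39b and H2-D1 lie near 0.

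Receptors for the 3 ligands were also measured in these cells. Of the 4, 2 rose, 1 fell and 1 did not pass. This count and those of the lists below stand beside all rows tested, of which 61.7% were called and 30.8% were higher. Ltbr, the lymphotoxin beta receptor gene, is known mainly from stromal and myeloid cells. It was at 0.146, 0.0944 and 0.0165 FPKM in cNK and at 1.73, 1.98 and 1.88 FPKM in DN NK (log2 fold change 4.44, SE 0.54, adjusted p = 0.000472). All DN NK libraries were above all cNK libraries, but the cNK values rest on about 16.7 read pairs in all, and the gene entered the test only through DN NK. On the log2(FPKM + 1) scale limma gave a log2 fold change of 1.40. Tnfrsf1a, the gene of TNFR1, rose 1.25-fold from 22.2 ± 0.988 to 26.7 ± 1.53 FPKM. Tnfrsf1b, the gene of TNFR2, was at 66.8 ± 11.1 and 59.3 ± 1.10 FPKM with overlapping groups and did not pass (log2 fold change -0.11, adjusted p = 0.455). Tnfrsf14, whose product HVEM binds lymphotoxin alpha and the related ligand LIGHT, fell from 10.5 ± 0.357 to 7.18 ± 1.28 FPKM (log2 fold change -0.49, adjusted p = 0.00764).

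Ligands of the same family outside the locus went both ways. Of 15 listed, 14 were matched and 9 were tested, of which 6 rose and 3 fell, with a median log2 fold change of 1.48. With a mean of at least 5 FPKM only 3 were tested, of which 1 rose and 2 fell. Tnfsf11, the gene of the osteoclast and lymph node factor RANKL, was at 0.0655, 0.170 and 0.0348 FPKM in cNK and at 3.42, 2.74 and 2.51 FPKM in DN NK, 32.5-fold higher from about 16.4 read pairs in cNK. Tnfsf4, which encodes OX40 ligand, rose 7.38-fold from 0.294 ± 0.138 to 2.09 ± 0.558 FPKM, with about 43.2 read pairs in cNK. Tnfsf8, which encodes CD30 ligand, rose 4.27-fold from 1.40 ± 0.145 to 5.73 ± 0.0962 FPKM. Tnfsf11 and Tnfsf4 entered the test only through DN NK, since no cNK library reached 1 FPKM. For Tnfsf11, Tnfsf4 and Tnfsf8, on the log2(FPKM + 1) scale limma gave log2 fold changes of 1.83, 1.24 and 1.49. Fasl, the gene of the death ligand FasL, was the most abundant of them and fell from 141 ± 13.6 to 36.9 ± 2.87 FPKM, and the other two called lower were Tnfsf12 and Tnfsf13. The Tnfsf13 call (adjusted p = 0.0262) ended without cNK replicate 2 or 3 and without any one DN NK replicate. Fasl was above Ltb in every cNK library and below it in every DN NK library.

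NF-kappa B is a main pathway below these receptors, and it is also known to act on the Tnf gene. Among 12 genes of its subunits, inhibitors and feedback, all tested, 9 rose, none fell and 3 did not pass, with a median log2 fold change of 1.08. Rel, the c-Rel subunit gene, was at 25.9 to 38.5 FPKM in cNK and at 86.0 to 93.2 FPKM in DN NK, a log2 fold change of 1.54. Nfkb2, the gene of the p100 precursor used downstream of the lymphotoxin beta receptor, rose 2.72-fold from 43.2 ± 9.43 to 113 ± 4.70 FPKM. Tnip1, a feedback inhibitor, rose 3.47-fold (adjusted p = 1.77e-06). Nfkbia, the gene of the inhibitor I kappa B alpha and the most abundant of them, was at 616 ± 86.3 and 660 ± 14.6 FPKM with overlapping groups and did not pass, and the other two that did not pass were Tnfaip3 and Nfkbiz. Without cNK replicate 1, Nfkbia and Nfkbiz passed and 11 of the 12 were higher. Each of the 12 changed by less on the log2 scale than Lta and Tnf, and Tnip1 alone by more than Ltb (1.79 against 1.74). These differences between genes were not tested.

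Genes that carry the signal from the receptors were split. In this list of 23, 12 were called higher and 4 lower (Tradd, Cflar, Ikbkg and Fadd), and 7 missed the threshold, with a median log2 fold change of 0.14. The higher calls depended on the setting, with 7 under upper quartile scaling, under limma and without DN NK replicate 1, and the lower calls numbered 2 without cNK replicate 2 or 3 or DN NK replicate 3. The Fadd call also ended without DN NK replicate 1, and the Ikbkg call without DN NK replicate 2. Map3k14, the gene of the kinase NIK, which acts below the lymphotoxin beta receptor, rose 1.95-fold from 10.4 ± 1.33 to 19.4 ± 0.575 FPKM. Birc2, the gene of the ubiquitin ligase cIAP1, and Traf1, an adaptor gene, rose 1.74-fold and 1.73-fold. Otulin, a deubiquitinase gene and the most abundant of the list, rose 1.34-fold to 112 ± 2.11 FPKM.

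Membrane TNF is shed by the protease ADAM17, whose transport is assisted by iRhom proteins. Of 6 genes of this step, 4 were tested, of which 2 rose, 1 fell and 1 (Frmd8) did not pass, although Frmd8 was called lower in 7 of 16 alternatives, among them leaving out DN NK replicate 2. Adam17 was at 11.0 ± 0.279 and 11.6 ± 0.415 FPKM (log2 fold change 0.14, adjusted p = 0.0438), with overlapping groups and a call that ended in 12 of 16 alternatives, among them leaving out any cNK replicate or DN NK replicate 1 or 2. Rhbdf2, the gene of iRhom2, rose 2.96-fold from 0.901 ± 0.0846 to 2.55 ± 0.341 FPKM (a log2 fold change of 1.56, and 0.90 with limma on log2(FPKM + 1)). It entered the test only through DN NK, as its cNK libraries lay at 0.811 to 0.979 FPKM. Adam10, a related protease gene, fell from 29.6 ± 1.29 to 21.0 ± 0.976 FPKM. The Tnf transcript is short-lived, in part through proteins that bind its AU-rich element. Of 12 listed regulators of Tnf mRNA stability, all tested, 6 rose, 1 fell and 5 did not pass, with a median log2 fold change of 0.32. Over all rows tested, 61.7% were called and 30.8% were higher. The call of Zfp36, among the 6, ended in 8 of 16 alternatives, including leaving out any one DN NK replicate. Zfp36l1, a decay factor gene, rose 1.88-fold from 69.4 ± 10.0 to 125 ± 12.4 FPKM, and Elavl1, the gene of the stabilising protein HuR, rose 1.66-fold from 6.11 ± 0.109 to 9.74 ± 0.228 FPKM. Zfp36l2, the most abundant of them, fell from 683 ± 14.2 to 502 ± 12.9 FPKM. The 5 that did not pass were Tial1, Zc3h12d, Zc3h12a, Tia1 and Rc3h2, but Zc3h12a was called higher with DESeq2 and without cNK replicate 1, and Tia1 was called lower without DN NK replicate 2.

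Among 13 factors known at the Tnf promoter, all tested, 4 rose, 1 fell and 8 did not pass, with a median log2 fold change of 0.14. Over all rows tested, 61.7% were called and 30.8% were higher, so these counts do not set the list apart. Egr1 rose 1.58-fold from 27.3 ± 1.56 to 41.3 ± 3.67 FPKM, and Atf2 rose by 0.58 on the log2 scale from 6.48 ± 0.275 to 9.31 ± 0.314 FPKM. Junb, an AP-1 gene and the most abundant of the list, rose 1.51-fold from 642 ± 77.2 to 931 ± 71.7 FPKM. Fosb was also called higher (log2 fold change 0.22, adjusted p = 0.0373), a call that ended in 10 of 16 alternatives, among them leaving out cNK replicate 2 or 3 or any one DN NK replicate. Fos, its relative, was the gene that fell, from 243 ± 44.6 to 158 ± 9.80 FPKM. The 3 NFAT genes of the list, which relay calcium signals, were among those that did not pass, although Nfatc3 was called in 5 of 16 alternatives.

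**Figure D4:**
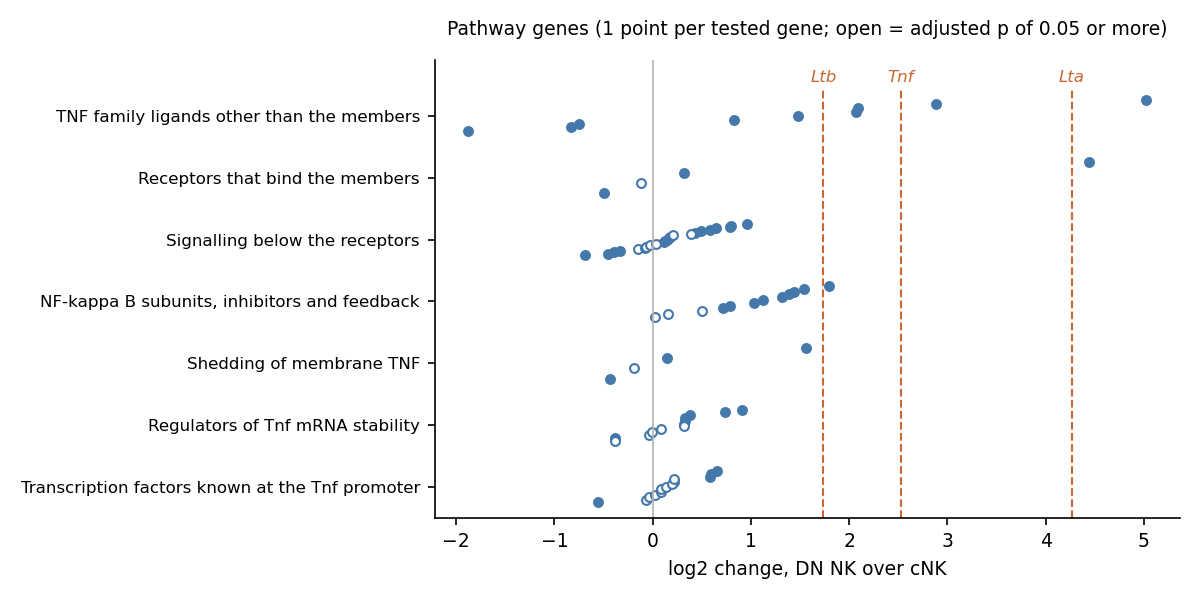
Log2 fold change (DN NK over cNK) of the tested genes of 7 pathway lists, 1 point per gene; open points did not pass an adjusted p of 0.05, and dashed lines mark Ltb, Tnf and Lta. Most points of the NF-kappa B list lie to the right of 0 and, except for Tnip1, left of the Ltb line.

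Other lymphocytes also express these cytokines, and markers of some were raised together with Lta, Tnf and Ltb. The 12 B cell markers summed to 2.84 to 3.25 FPKM in cNK and 42.3 to 55.9 FPKM in DN NK, with 9 of 12 at a mean of at least 1 FPKM there against 1 of 12 in cNK. The 8 matched markers of ILC3 and lymphoid tissue inducer cells summed to 0.280 to 0.325 and 9.87 to 13.1 FPKM, with Ccr6, Il17f and Il22 at 0 in all cNK libraries and 4 of 8 at 1 FPKM or more in DN NK. Tnfsf11, already given among the ligands, is 1 of these 4 and had a mean of 2.89 FPKM in DN NK. The 12 T cell markers summed to 498 to 515 and 648 to 685 FPKM, with 5 and 7 of 12 at 1 FPKM or more, most of it from Trbc1 and Trbc2. That sum hides larger changes: all 7 T cell markers tested were higher, against 30.8% of all rows tested. Cd3d rose 8.84-fold from 4.54 ± 0.358 to 38.5 ± 0.873 FPKM, and Trbc1 1.23-fold. Cd4 and Bcl11b were tested only through DN NK. Markers of monocytes and macrophages, which are a known source of TNF, summed to 6.75 to 7.76 and 6.34 to 7.06 FPKM, with 1 of 10 at 1 FPKM or more in each group. Dendritic cell markers summed to 1.23 to 2.07 and 6.19 to 6.97 FPKM, with 1 of 4 at 1 FPKM or more in each group. In both groups that gene was Zbtb46, at 1.56 ± 0.435 FPKM in cNK and 6.42 ± 0.423 FPKM in DN NK. The 7 ILC2 markers summed to at most 1.11 FPKM in any library, the 3 matched neutrophil markers to at most 0.436 FPKM and the 3 matched basophil and mast cell markers to at most 0.415 FPKM. Il9r, Mcpt8, Ms4a2, Csf3r, S100a8 and S100a9 of these lists were at 0 in all cNK libraries, and no matched marker was at 0 in all 6 libraries. Within DN NK, the sums of the B cell and ILC3 lists were highest in replicate 1 (55.9 and 13.1 FPKM) and that of the T cell list in replicate 3 (685 FPKM). Lta, Tnf and Ltb were highest in replicate 2, an order among 3 libraries that does not bear on the difference between the groups. The part of these cell types in the levels of the 3 genes was not tested.

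**Figure D5:**
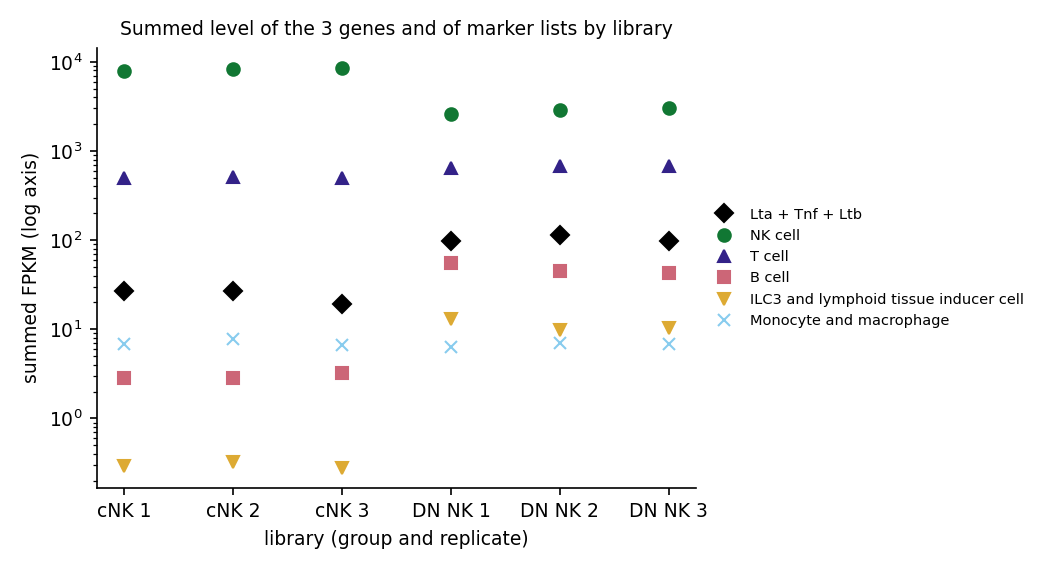
Summed FPKM of Lta, Tnf and Ltb (black diamonds) and of 5 marker lists in each library, on a log axis. The summed B cell and ILC3 markers lie above their cNK level in every DN NK library, as the 3 genes do, and the monocyte and macrophage markers stay between 6.34 and 7.76 FPKM in all 6 libraries.

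Profiles over the 6 libraries were compared by the Euclidean distance between log2(FPKM + 1) values centred on the mean of each gene, among 9553 named rows. Nearest to Lta were Gpr183, an oxysterol receptor gene (distance 0.24), Rnf19b (0.29) and Odc1, an enzyme gene of polyamine synthesis (0.30). Nearest to Tnf were Marcksl1 (0.29), Kdm2b (0.30) and Cd200r1 (0.32), and nearest to Ltb were the cytokine gene Csf2 (0.28), Itm2c (0.36) and Sh3bp4 (0.37). All 9 rose in DN NK, from 3.11-fold for Itm2c to 13.1-fold for Cd200r1, but Cd200r1 and Sh3bp4 entered the test only through DN NK, with cNK means of 0.491 ± 0.113 and 0.417 ± 0.0867 FPKM. The distances between the 3 genes were 0.61 between Lta and Tnf, 0.88 between Tnf and Ltb and 1.46 between Lta and Ltb. The 9 rows were picked as the nearest of 9553. That they were nearer than the members and also rose thus follows from the choice. With 2 groups of 3 libraries, such a distance mostly measures the size of the group difference.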

How the data were processed

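Per the labels' protocols, poly(A) RNA was made into libraries with the TruSeq RNA v2 kit. HISAT, StringTie, edgeR and GRCm38 (mm10) appear in the submitters' processing notes, without versions. Per the file headers, the authors deposited an FPKM value and a count for each gene and library. The deposited estimated counts are whole but were derived from coverage by the authors: for rows of 1 transcript, 89.1 to 91.2% of low counts (at most 30) could be recomputed from the FPKM value and the transcript length by rounding up.

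edgeR 4.0.16 (R 4.3.3) tested the 11690 rows reaching 1 FPKM in 3 or more libraries: TMM factors of 0.972 to 1.026, robust quasi-likelihood, group as the only term, 2-sided, Benjamini-Hochberg adjustment over all tested rows and a threshold of 0.05. On simulated counts with 200 changed rows among 11690, the fit recovered 64% of 1.5-fold changes and 100% of 2-fold, 4-fold and 20-fold ones. Of its calls there, 7.1% were false. Those counts had a single dispersion and were not derived from coverage, and far fewer rows changed than were called here. FPKM means are of the deposited values. DESeq2 1.42.0 and limma 3.58.1 were alternatives. Differences between the changes of 2 genes used an exact permutation test on ratios of FPKM. Intervals cover counting error only.

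The members and lists were chosen with earlier results of these data known. Named were the 3 genes, neighbours with a mean of 1 FPKM or more in a group, all receptors, and of each other list up to 3 genes with the largest change past the threshold and the most abundant one. For each member, the 3 rows with the nearest profile were added, leaving out gene models, clone names and receptor segments. Chosen after their values were seen were Tnfsf12, Tnfsf13, Tnfaip3, Nfkbiz, Tradd, Cflar, Ikbkg, Fadd, Frmd8, Tial1, Zc3h12d, Zc3h12a, Tia1, Rc3h2, Fos, Fosb, the NFAT genes, Trbc1, Trbc2 and the comparison of Fasl with Ltb. The same holds for Cd3d, Cd4, Bcl11b, Zbtb46 and Zfp36.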

Additional observations from a re-analysis of the deposited data

How the results depend on the processing

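Lta, Tnf and Ltb kept their direction and their call in all 15, 16 and 16 alternatives run (other scalings, DESeq2, limma on FPKM, other filters, counts per read pair, the replicate block and leaving out each library). The log2 fold changes ranged from 2.75 to 4.66 for Lta, from 2.33 to 2.66 for Tnf and from 1.59 to 1.85 for Ltb, with adjusted p of at most 0.000492, 0.000221 and 0.00166. A filter on a mean of at least 5 FPKM removes Lta, so it gave no value there, and it left 4614 rows past the threshold in place of 7215, from fewer rows tested. The differences between members kept their sign in 10 of 10 alternatives each. Their exact permutation p stayed at 0.1, or 0.25 from flipping the signs of differences within the replicate block, so no alternative passed 0.05. Leaving out each library gave 1.49 to 2.04 (Lta against Tnf), 2.19 to 2.89 (Lta against Ltb) and 0.70 to 0.85 (Tnf against Ltb). The labels link libraries of the same number by that number only. Correlations of their deviations from the group means were 0.046, 0.036 and 0.162, the last being the highest of any cNK and DN NK pair. Pairs of unlike number ranged from -0.098 to 0.056, the highest being cNK replicate 1 with DN NK replicate 2. These values do not settle whether the libraries were paired. With the replicate block 7222 rows passed, and the log2 fold changes were 4.32, 2.54 and 1.75.

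Counts over short lists moved more. Of the 23 signalling genes 12 rose, against 7 with upper quartile scaling, limma (both pseudocounts), edgeR's default filter and without DN NK replicate 1, and 6 without a filter; 4 fell, against 2 with the 5 FPKM filter and without cNK replicate 2 or 3 or DN NK replicate 3. Of the shedding genes 2 rose, against 0 with the 5 FPKM filter and 1 in 9 settings: upper quartile scaling, limma at both pseudocounts, the replicate block, and without any one of cNK replicates 1, 2 and 3 or DN NK replicates 1 and 2. The 5 FPKM filter left 1 rising ligand in place of 6, 1 rising receptor in place of 2 and 3 rising neighbours in place of 9. Rising neighbours numbered 6 without cNK replicate 1. They numbered 7 with DESeq2, with counts per read pair, and without cNK replicate 3 or DN NK replicate 1 or 2. They numbered 10 with limma, and 10 of 20 tested with edgeR's default filter. A 250 kb window held 31 tested neighbours, of which 18 were higher and 2 lower. Over all rows tested, 61.7% were called and 30.8% were higher. Falling genes went from 1 to 2 in 7 settings for shedding, in 5 for promoter factors and, without DN NK replicate 2, for mRNA stability. The cause of these shifts was not tested. Depth limits Lta, Ltbr and Tnfsf11 in cNK, at about 52.5, 16.7 and 16.4 read pairs.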
